A study of Mus musculus with 8 samples.

Results

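Circadian clock genes were followed across mouse dorsal skin profiled on 8 Affymetrix expression arrays. The set was named as 10 genes: the activators Arntl and Clock, the repressors Per1, Per2, Per3 and Cry1, the nuclear receptors Nr1d1 and Nr1d2 (REV-ERB alpha and beta), and the PAR bZIP factors Dbp and Tef. A probe set, the array's unit of measurement, was kept where the platform annotation gave it only 1 of these symbols. This left 9 genes on 10 probe sets, out of 22180 genes on 23521 probe sets with 1 symbol. Tef had 2 probe sets, and the one with the higher mean level stood for the gene. The only probe set that names Per2 also names a second gene, so Per2 is not reported.

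The clock of a mammalian cell is a feedback loop of transcription. The Arntl protein (BMAL1) pairs with Clock, binds E-boxes and drives the Per, Cry, Nr1d and Dbp genes, and the Per and Cry proteins then inhibit that pair. Nr1d1 and Nr1d2 repress Arntl through ROR response elements (ROREs), so that Arntl peaks at about the opposite time of day to Nr1d1 and Dbp, and Dbp and Tef act on D-boxes in further genes such as Per3. In skin this loop runs in keratinocytes, fibroblasts and hair follicles, and it is known for timing cell division and parts of the immune response.

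The study asked how skin inflammation brought on by imiquimod (IMQ), an activator of Toll-like receptor signalling used to model psoriasis in mice, differs with the genotype of the IL-22 receptor and with alloferon, an immune-modulating peptide. All animals were male, either C57BL/6 (WT) or B6.Cg-Il22ra1tm1.1Koll/J (KO, IL-22Rα). The IMQ mice received 83.3 mg of 5% cream on the back and ear each day from day 1 to day 7, and treated mice received vehicle or alloferon cream 6 hours after it. The study states 4 mice per group, and each of the 8 labels has 1 array.

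The arrays labelled without IMQ were WT_CTRL, KO_CTRL, KO_CTRL-B and KO_Allo, and their IMQ counterparts were WT_IMQ, KO_IMQ, KO_IMQ_B and KO_IMQ_Allo. The last of each set carries alloferon. Each of the 4 arms (WT, KO, KO with the letter B, KO with alloferon) was therefore a pair of arrays that differed in IMQ. There was no WT array with alloferon. The meaning of the letter B, the age of the mice, the time of day of sampling, the number of mice behind each RNA, any vehicle given to the arrays labelled CTRL, and whether the receptor is lost in every cell type are not given in the sources used here. Bulk skin RNA was measured, so fewer cells of a type and less RNA per cell cannot be told apart.

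Values are the authors' log2 expression values, on which 1 unit is a 2-fold difference in signal, and array medians lay between 5.68 and 5.73. Tissue make-up differed among the arrays. The level of each marker list is given here as the median of its log2 values. The median of 19 hair follicle markers ranged from 5.41 on KO_IMQ to 10.10 on KO_CTRL-B. The median of 15 skeletal muscle markers was 10.52 on WT_CTRL, 10.81 on KO_CTRL, 8.55 on KO_CTRL-B and 8.32 on KO_Allo, and between 7.73 and 8.36 on the IMQ arrays. That of 7 epidermal markers ran from 10.56 on KO_CTRL to 12.25 on WT_IMQ, so the labelled tissue carried its defining markers on every array, and that of 10 macrophage and neutrophil markers from 6.52 on WT_CTRL to 9.48 on KO_IMQ. The lowest and highest medians of 8 adipocyte markers were 7.18 on KO_IMQ_B and 9.08 on KO_CTRL.

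Promoter stretches of 5 of the genes are shown because they carry the 3 elements through which the loop acts. Windows of 250 bases before to 50 bases after each annotated start, from RefSeq on GRCm38.p6, were searched on both strands for the E-box CACGTG, the D-box TTATGTAA or TTACGTAA, and the RORE half-site TAGGTCA or TGGGTCA. These motifs do not overlap one another. The 9 genes had 14 windows. Per3 is on the minus strand at chr4:151044804-151044882, Per1 on the plus strand at chr11:69098759-69098812, Cry1 on the minus strand at chr10:85185085-85185138, the Tef stretches on the plus strand at chr15:81802522-81802575 and chr15:81811252-81811305, and Arntl on the plus strand at chr7:113207530-113207559. Each is written 5′ to 3′ on the gene's own strand, with the motif in capitals.
Per3, both D-boxes: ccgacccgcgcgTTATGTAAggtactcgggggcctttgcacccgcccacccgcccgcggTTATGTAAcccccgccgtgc
Per1, E-box: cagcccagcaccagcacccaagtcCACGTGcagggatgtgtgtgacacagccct
Cry1, E-box: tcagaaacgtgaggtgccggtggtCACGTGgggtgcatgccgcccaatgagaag
Tef, E-box at one start: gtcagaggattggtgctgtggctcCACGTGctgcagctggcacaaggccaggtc
Tef, E-box at the other start: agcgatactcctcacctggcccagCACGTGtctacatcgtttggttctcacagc
Arntl, RORE half-site: aaggcagaaagTAGGTCAgggacggaggtg

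The Per3 window held 2 D-boxes, 205 and 158 bases before the start. A D-box of either spelling was found in 1.06% of all 32851 promoter windows, and Per3 was the only one of the 9 genes with one. The E-box lay 166 bases before an annotated start of Per1 that lies inside the gene's span, 60 before the start of Cry1, and 127 and 138 before the 2 starts of Tef, in windows of a kind that made up 7.15% of all. The RORE half-site of Arntl lay 30 bases after an annotated start, also inside the gene's span, and 6.45% of all windows held one. No window of Dbp, Nr1d1, Nr1d2 or Clock held any of these letters, which says nothing of sites elsewhere in those genes. A match is a description of sequence and not a measured binding site.

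Among the activators, Arntl, the partner that gives the activating complex its daily rhythm, had log2 levels of 8.65 on WT_CTRL, 8.17 on WT_IMQ, 8.85 on KO_CTRL, 8.62 on KO_IMQ, 8.22 on KO_CTRL-B, 8.40 on KO_IMQ_B, 7.78 on KO_Allo and 8.11 on KO_IMQ_Allo. Both alloferon arrays lay below all 6 others, and the plain KO control was the highest. The widest step between neighbours in that order, 0.34 between KO_IMQ_Allo and KO_Allo, was the only one above the residual SD of the 4-arm fit, which was 0.26 for this gene. The steps among the other 7 arrays, such as that from KO_IMQ_Allo up to WT_IMQ, were smaller. That fit gives each arm its own level, so its SD holds the spread of IMQ differences among pairs and none between arms. Steps between arms are set beside it here and below as a yardstick of size only, not as a test.

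Clock, whose protein pairs with BMAL1 and whose RNA cycles weakly in most tissues, read 9.75 on WT_CTRL, 10.14 on WT_IMQ, 10.26 on KO_CTRL, 10.14 on KO_IMQ, 9.61 on KO_CTRL-B, 10.22 on KO_IMQ_B, 10.01 on KO_Allo and 10.19 on KO_IMQ_Allo. WT_CTRL and KO_CTRL-B were low, the alloferon arrays lay among the rest, and the order did not follow that of Arntl (r = 0.14 over the 8 arrays). The 2 low arrays were also those with the highest hair follicle medians, 9.67 and 10.10, and the part of hair in the Clock level was not tested.

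Among the repressors, Per3 separated the alloferon arrays most plainly. Its log2 levels were 6.99 on WT_CTRL, 6.89 on WT_IMQ, 6.94 on KO_CTRL, 6.48 on KO_IMQ, 7.08 on KO_CTRL-B, 6.74 on KO_IMQ_B, 7.55 on KO_Allo and 7.44 on KO_IMQ_Allo. Both alloferon arrays lay above all 6 others. The step of 0.36 down to KO_CTRL-B was larger than the residual SD of 0.13, which holds no spread between arms. The alloferon arrays themselves did not differ beyond that SD.

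Per1, a light- and glucocorticoid-inducible repressor, read 8.43 on WT_CTRL, 8.78 on WT_IMQ, 8.96 on KO_CTRL, 8.64 on KO_IMQ, 8.37 on KO_CTRL-B, 7.73 on KO_IMQ_B, 8.55 on KO_Allo and 8.65 on KO_IMQ_Allo. KO_IMQ_B stood 0.63 below the next array, and the other 7 overlapped within steps smaller than the residual SD of 0.31. Per1 had the widest range of the 9 genes, 1.23, from KO_CTRL down to that array.

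Cry1, the late repressor of the loop, had levels of 7.18 on WT_CTRL, 6.69 on WT_IMQ, 6.92 on KO_CTRL, 6.90 on KO_IMQ, 6.81 on KO_CTRL-B, 6.90 on KO_IMQ_B, 6.62 on KO_Allo and 6.77 on KO_IMQ_Allo. Its range of 0.56 was the narrowest of the 9. The alloferon arrays were the lowest of the 6 KO arrays, but WT_IMQ lay between them.

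The REV-ERB genes, which repress Arntl, moved together across the arrays (r = 0.96 between Nr1d1 and Nr1d2, as a description over 8 arrays of 1 tissue). Nr1d1 read 7.87 on WT_CTRL, 8.28 on WT_IMQ, 8.82 on KO_CTRL, 8.29 on KO_IMQ, 8.62 on KO_CTRL-B, 8.11 on KO_IMQ_B, 8.84 on KO_Allo and 8.80 on KO_IMQ_Allo. Nr1d2 read 7.29, 7.61, 8.06, 7.46, 7.78, 7.51, 8.20 and 7.97 on the same arrays in the same order. In both genes WT_CTRL was lowest, and the same 4 KO arrays, KO_Allo, KO_CTRL, KO_IMQ_Allo and KO_CTRL-B, were highest in the same order. For Nr1d2 no step between neighbouring arrays exceeded its residual SD of 0.27, and for Nr1d1 only the step of 0.33 below KO_CTRL-B exceeded its SD of 0.32.

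Dbp, a strongly rhythmic activator of D-box genes, had levels of 6.60 on WT_CTRL, 6.85 on WT_IMQ, 6.45 on KO_CTRL, 6.67 on KO_IMQ, 7.25 on KO_CTRL-B, 6.81 on KO_IMQ_B, 7.60 on KO_Allo and 7.23 on KO_IMQ_Allo. Both alloferon arrays and KO_CTRL-B were high, and a step of 0.38 parted them from the other 5. Its relative Tef read 6.01 on WT_CTRL, 5.77 on WT_IMQ, 6.04 on KO_CTRL, 5.87 on KO_IMQ, 6.30 on KO_CTRL-B, 5.81 on KO_IMQ_B, 6.34 on KO_Allo and 6.28 on KO_IMQ_Allo. The same 3 arrays were the highest for Tef, with a step of 0.23 below them against a residual SD of 0.13. The second Tef probe set put KO_Allo highest too, at 5.72, but KO_IMQ_Allo at 5.38 below KO_IMQ_B at 5.50. The mean level of Tef, 6.05, lay just below 6.06, the median level of all genes; the other 8 means lay above it. The ranges of all 9 genes were wider than the median range of all genes, 0.55.

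**Figure D1:**
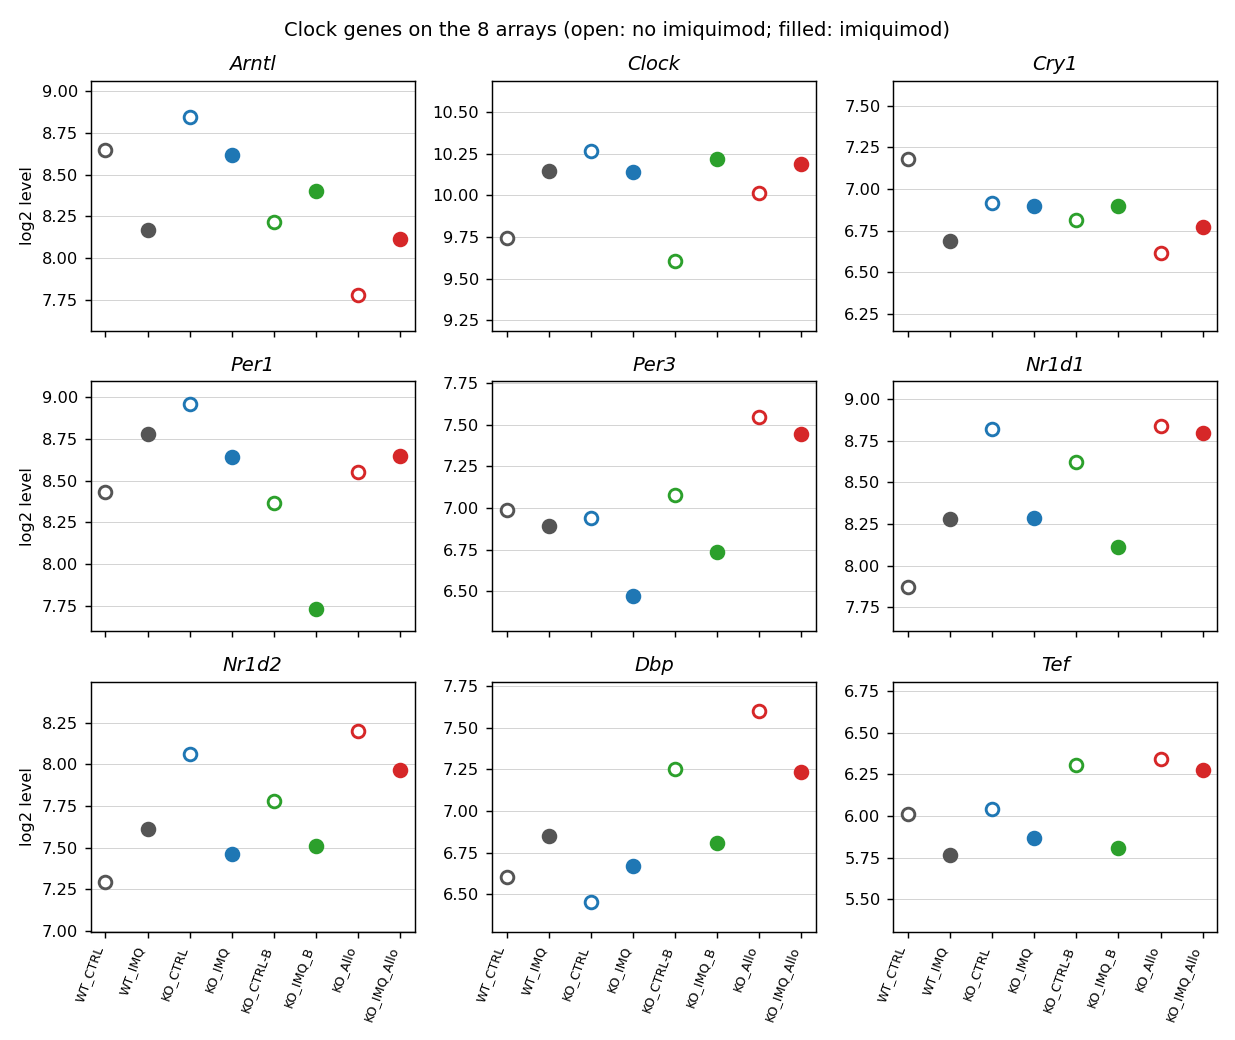
Log2 level (vertical axis, each panel with its own level but the same span) of the 9 clock genes on each of the 8 arrays, 1 point per array with no error because each label has 1 array. Colours mark the arms and filled points the IMQ arrays; the 2 red alloferon points lie above all others for Per3 and below all others for Arntl.

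The comparison named in the rule that chose these genes set KO_IMQ_Allo against KO_IMQ and KO_IMQ_B, with 1 array on each side and hence no test. Under IMQ the alloferon array was higher than both references for 6 of the 9 genes and lower for 2, Arntl and Cry1. Of all genes, 36.2% were higher and 35.3% were lower in the same way. The contrast belongs to the rule, and the counts describe it only.

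Per3 differed most in this contrast. It was higher by 0.97 than KO_IMQ and by 0.71 than KO_IMQ_B on the log2 scale. Nr1d1 was higher by 0.51 and 0.68, Nr1d2 by 0.50 and 0.46, Dbp by 0.56 and 0.43, and Tef by 0.41 and 0.47. Arntl differed by -0.51 and -0.29, and Cry1 by -0.12 and -0.12. Per1 was 0.91 above KO_IMQ_B but at the level of KO_IMQ, with a difference of 0.00, so that its count as higher hangs on a difference from KO_IMQ near 0. Clock differed by 0.05 and -0.03. The members' median difference from the mean of the references was 0.46, and that of all genes was 0.00.

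At 0.5 log2 units or more against both references, Per3 and Nr1d1 were higher, where 1.96% of all genes were, and no member was lower, where 2.14% were. At 1 unit no member passed, and 0.496% of all genes did in either direction. Per3, at 0.97 and 0.71, was the member nearest to that limit.

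The arrays without IMQ, KO_Allo against KO_CTRL and KO_CTRL-B, share no array with the comparison under IMQ. Dbp was higher on KO_Allo by 1.14 than KO_CTRL and by 0.35 than KO_CTRL-B. Per3 was higher by 0.61 and 0.46, Nr1d2 by 0.14 and 0.42, Nr1d1 by 0.02 and 0.22, and Tef by 0.30 and 0.04. Arntl differed by -1.07 and -0.44 and Cry1 by -0.30 and -0.19. Per1 (-0.41 and 0.19) and Clock (-0.25 and 0.40) lay between their references.

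Thus 5 members were higher than both references, as were 32.4% of all genes, and 2 were lower, as were 30.7% of all genes. No member reached 1 unit against both references, as 0.401% of all genes did. Against KO_CTRL alone, Dbp and Arntl did. The members' median difference from the mean of the references was 0.12 without IMQ, again beside 0.00 for all genes.

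Dbp, Nr1d1, Nr1d2, Per3 and Tef were higher in all 4 alloferon differences, 5 of 9 members, where 12.1% of all genes were. Arntl and Cry1 were lower in all 4, 2 of 9, where 10.9% of all genes were. Nr1d1's difference of 0.02 from KO_CTRL was so small that centring each array on its median left 6 of the 9 genes with 1 direction in place of 7. Tef differed from KO_CTRL-B by only 0.04, and its second probe set was lower on KO_IMQ_Allo (5.38) than on KO_IMQ_B (5.50). With the mean of all probe sets of a gene, 7 genes kept 1 direction. Only Per3 had both alloferon arrays above the other 4 KO arrays, as 6.48% of all genes had, and only Arntl and Cry1 had both below, as 6.14% of all genes had. These genes share arrays and a common regulatory loop and are not independent of one another. The differences under IMQ are also the contrast named in the rule that chose these genes, so the counts are a description only.

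**Figure D2:**
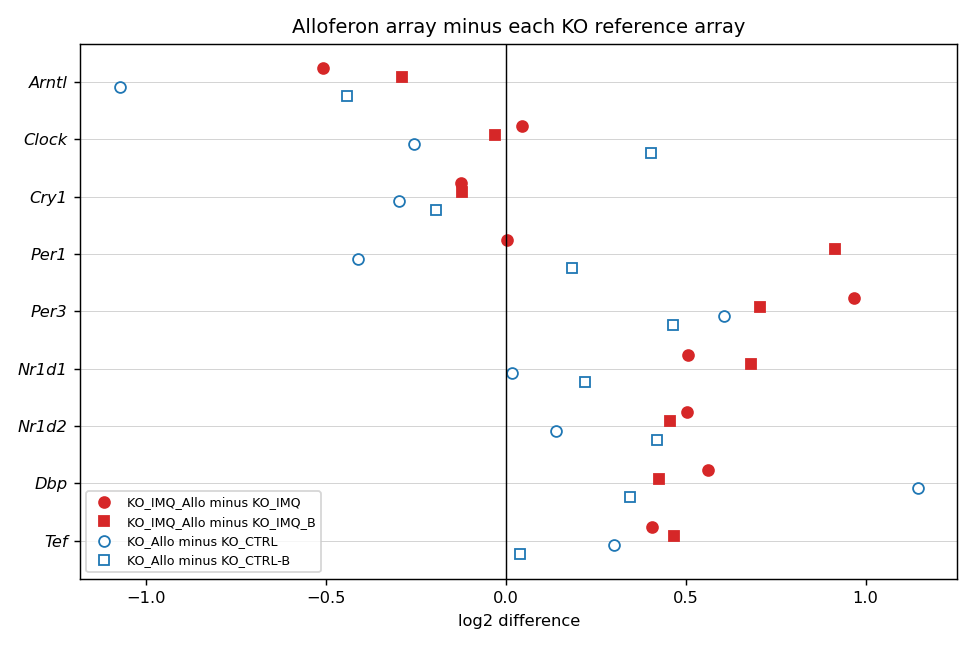
Log2 difference (horizontal axis) of an alloferon array from each of 2 KO reference arrays for the 9 clock genes, filled red under IMQ and open blue without IMQ; circles are against the plain KO array and squares against the array with the letter B. All 4 points lie right of 0 for Dbp, Nr1d1, Nr1d2, Per3 and Tef and left of 0 for Arntl and Cry1.

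Markers of muscle and Arntl were highest on the same 2 arrays, but elsewhere their orders differed. The 2 arrays with the highest Arntl levels, KO_CTRL at 8.85 and WT_CTRL at 8.65, had the highest skeletal muscle medians, 10.81 and 10.52. KO_Allo had the lowest Arntl, 7.78, at a muscle median of 8.32, and KO_IMQ had 8.62 at a median of 8.28. Of the 15 muscle markers, 8, among them Acta1, Ckm and Ryr1, were lower in all 4 alloferon differences, where 10.9% of all genes were. KO_CTRL-B and KO_Allo had muscle medians of 8.55 and 8.32. KO_Allo minus KO_CTRL-B ran from -3.58 in Myh4 to 1.32 in Myh2 over the 15 markers, and was -0.44 for Arntl. The part of muscle in the Arntl level was not tested. For hair, KO_Allo (8.92) lay between its references (6.74 and 10.10), and KO_IMQ_Allo (6.52) lay between its own (5.41 and 7.66). The macrophage and neutrophil median was 7.79 on KO_Allo against 6.76 and 6.73 on its references, and 8.76 on KO_IMQ_Allo against 9.48 and 9.30. The adipocyte median was 7.34 on KO_Allo against 9.08 and 8.13, and 7.65 on KO_IMQ_Allo against 7.68 and 7.18. The epidermal median was 11.92 on KO_Allo against 10.56 and 11.23, and 12.10 on KO_IMQ_Allo against 11.69 and 12.02. Their part in the members' differences was not tested.

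The rule also named an opposition of Arntl and Dbp, which was read over all 8 arrays as a description. KO_CTRL had the lowest Dbp (6.45) and the highest Arntl (8.85), and KO_Allo had the highest Dbp (7.60) and the lowest Arntl (7.78). Pearson's r was -0.94 and Spearman's rho was -0.93. Without KO_Allo and KO_CTRL-B, the arrays farthest from the median of Dbp, r over the other 6 was -0.92. Within the WT pair the array with more Dbp (6.85 on WT_IMQ against 6.60 on WT_CTRL) had less Arntl (8.17 against 8.65). These parts of the 8 arrays describe the opposition named in the rule and lend it no further support.

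Nr1d1 and Nr1d2 were the pair with the r of largest size, the 0.96 given above, followed by Arntl and Dbp. Per3 had r = 0.77 with Dbp, 0.83 with Tef and -0.70 with Arntl. Cry1 had r = 0.80 with Arntl and -0.72 with Dbp. Per1 and Clock had no r beyond 0.47 in size with any other member. The 8 points share tissue, study and arm, and all these values are descriptions.

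**Figure D3:**
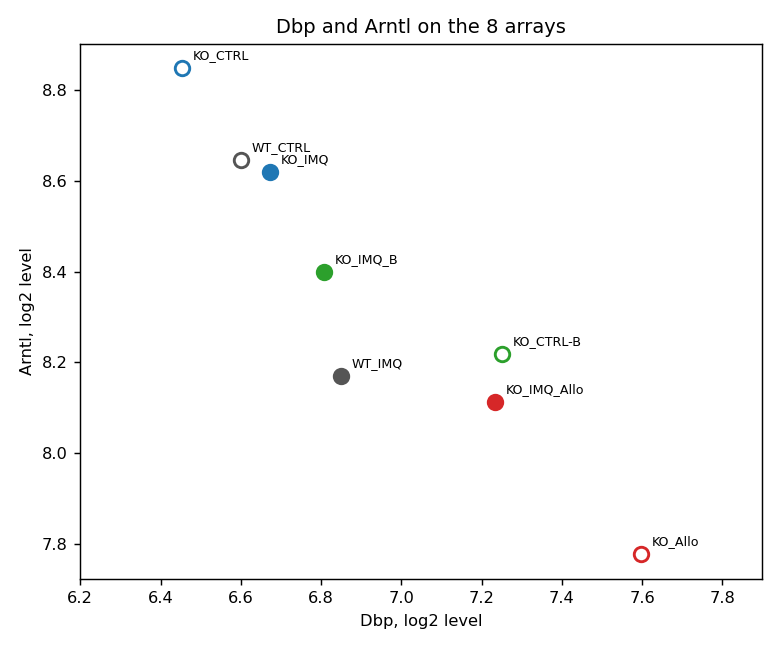
Arntl against Dbp, both as log2 levels, with 1 labelled point per array. The points fall from KO_CTRL at upper left (Dbp 6.45, Arntl 8.85) to KO_Allo at lower right (7.60, 7.78), and KO_IMQ_Allo and KO_CTRL-B lie next to each other (7.23 and 7.25 for Dbp).

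IMQ was tested over the 4 pairs in 1 limma model with a level per arm and 1 IMQ effect. No member passed an adjusted p of 0.05 (limma, Benjamini-Hochberg over 22180 genes), where 3.09% of all genes did, 421 of them higher and 264 lower. One member, Per3, had an unadjusted p under 0.05, beside 4171 genes in all. The members' median IMQ difference was -0.13 log2 units, and that of all genes was -0.01. In a simulation this model recovered 0% of genes that differed by 0.5 log2 units and 97% of those that differed by 1. In the data, the 15 skeletal muscle markers differed by a median of -1.38 log2 units with IMQ, and 5 of them were called lower. The share of 97% therefore need not hold for the data. The lack of member calls does not show that member differences were absent.

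Per3 differed by -0.25 ± 0.10 (SE, 4 pairs; adjusted p = 0.262 in limma), with differences of -0.09 in the WT pair, -0.46 in the KO pair, -0.34 in the B pair and -0.10 in the alloferon pair. Tef differed by -0.25 ± 0.10 (adjusted p = 0.268), with -0.24, -0.17, -0.50 and -0.07 in the same pairs. Those 2 genes had 1 sign in all 4 pairs, 2 of 9, where 27% of all genes had. Clock had the largest difference upward, 0.26 ± 0.13 (adjusted p = 0.352), from 0.40, -0.12, 0.61 and 0.18.

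Arntl and Dbp had small mean differences made of pairs that went opposite ways. Arntl differed by -0.48 in the WT pair, -0.23 in the KO pair, 0.18 in the B pair and 0.34 in the alloferon pair, with a mean of -0.05 ± 0.15 and a 95% interval from -0.41 to 0.31. Dbp differed by 0.25, 0.22, -0.44 and -0.36, with a mean of -0.09 ± 0.15. In each of these genes the WT and KO pairs lay on one side of 0 and the B and alloferon pairs on the other. Cry1 (-0.07 ± 0.13) and Per1 (-0.13 ± 0.17) also had pairs on both sides.

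The IMQ differences of Nr1d1 and Nr1d2 had opposite signs in the single WT pair and in the KO pairs, and the contrast of the genotypes, given below, did not pass. Nr1d1 was higher by 0.41 with IMQ in the WT pair, and its differences in the 3 KO pairs were -0.53, -0.51 and -0.04. Nr1d2 was higher by 0.32 in the WT pair, with -0.60, -0.27 and -0.23 in the KO pairs. Of all genes, 10.3% had the WT pair on one side of 0 and all 3 KO pairs on the other, and these were the 2 of 9 members that did.

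**Figure D4:**
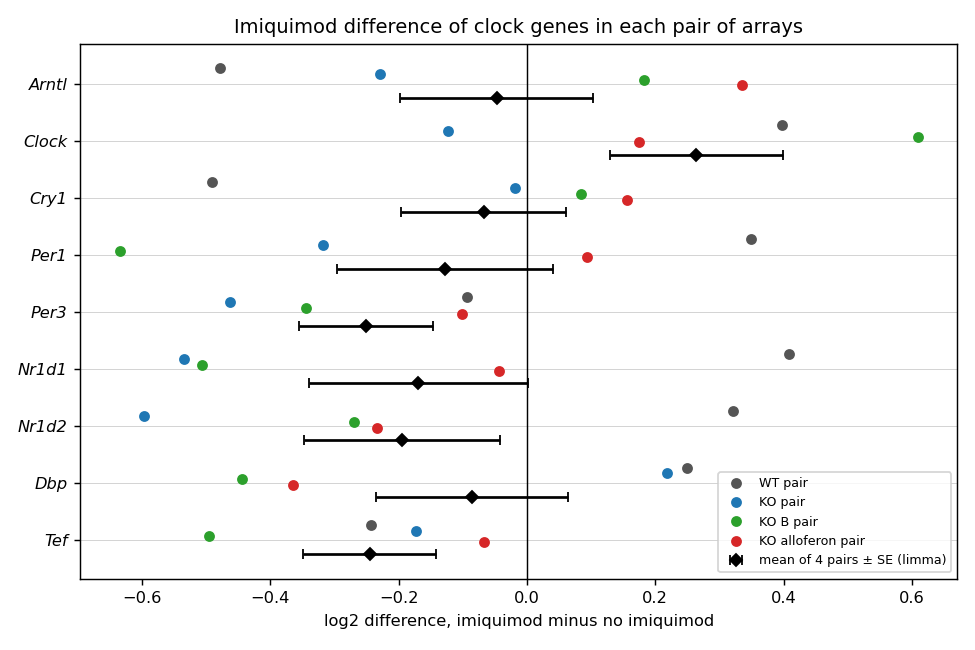
Log2 difference with IMQ (horizontal axis) of each clock gene in the 4 pairs of arrays, coloured points, and the limma mean of the 4 pairs with its SE, black diamonds. For Nr1d1 and Nr1d2 the grey WT point lies right of 0 (0.41 and 0.32) and the 3 KO points left of it; no mean passed the test.

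The genotypes were fitted with an IMQ effect each. Over the 3 KO pairs, 0% of all genes passed an adjusted p of 0.05 in limma, and no member did; unadjusted, 3093 genes and 2 members lay under 0.05. The KO effect was -0.36 ± 0.14 for Nr1d1 (adjusted p = 0.347), -0.37 ± 0.12 for Nr1d2 (adjusted p = 0.294) and -0.30 ± 0.12 for Per3 (adjusted p = 0.360). In the single WT pair, 0% of all genes and 0 members passed, with 2396 genes and 1 member under 0.05 unadjusted. The WT effect was 0.41 ± 0.24 for Nr1d1, 0.32 ± 0.22 for Nr1d2, -0.48 ± 0.25 for Arntl and -0.49 ± 0.19 for Cry1 (adjusted p = 0.438 for Cry1 in limma). Each WT effect is 1 array against 1, so its SE comes from the spread among the KO pairs, with limma's moderation, and assumes that WT arrays vary like them. With the hair follicle median as a covariate the WT effects of Nr1d1, Nr1d2, Clock and Tef turned sign. With the muscle median those of Dbp, Per3 and Arntl did. Both medians fell with IMQ in every pair, so these fits could not decide what part hair or muscle had.

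The difference of the genotypes in their response, WT minus KO, was 0.77 ± 0.28 for Nr1d1, 0.69 ± 0.25 for Nr1d2 and -0.56 ± 0.21 for Cry1, each with an adjusted p of 0.983 in limma. Here too 0% of all genes and 0 members passed, and 914 genes and 3 members had an unadjusted p under 0.05. With 1 WT pair and 2 residual degrees of freedom, the SE of this contrast was wide: for Per1 the difference was 0.64 ± 0.33 and for Arntl -0.57 ± 0.29.

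Between the KO arm and the WT arm, averaged over IMQ, 0% of all genes and 0 members passed, with 1395 genes and 0 members under 0.05 unadjusted. Nr1d1 had the largest member difference, 0.48 ± 0.24 (adjusted p = 0.833 in limma). It came from the arrays without IMQ, where KO_CTRL was above WT_CTRL by 0.95, while KO_IMQ and WT_IMQ differed by 0.01. Its sign turned with the hair follicle median as a covariate. That median itself differed between the KO and WT arms, so the fit could not decide what part hair had. Arntl differed by 0.33 ± 0.21 (adjusted p = 0.868).

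The IMQ difference of the alloferon pair was also set against those of the other KO pairs. No member differed from both by 1 log2 unit or more, as 1.82% of all genes did. For Arntl the alloferon pair's IMQ difference was 0.34, beside -0.23 and 0.18. For Nr1d1 it was -0.04, beside -0.53 and -0.51, which came from a level on KO_IMQ_Allo (8.80) as high as on KO_Allo (8.84).

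The rest of the clock pathway was read from a list of 30 genes that includes these members. Probe sets with 1 symbol measured 26 of them, and the others are not reported. In the 4 alloferon differences, 11 of 26 were higher in all and 4 were lower in all, beside 12.1% and 10.9% of all genes. Among the 17 that are not members, 6 were higher in all 4 and 2 were lower, the latter a share near that of all genes. The 6 were Arntl2, Ciart, Cry2, Fbxl21, Rorb and Usp2. Arntl2 counts on differences of 0.01 and 0.04 from the plain KO arrays. The means of Fbxl21 (4.60) and Rorb (5.85) lay below the median level of all genes. Of those 17, 5 had both alloferon arrays above the other 4 KO arrays and 2 had both below, beside 6.48% and 6.14% of all genes. The list includes genes that share regulation, and it was drawn up with earlier results known.

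Ciart, a repressor of the BMAL1 complex, was higher with alloferon by 0.64 and 0.51 under IMQ and by 0.42 and 0.43 without it. Its 8 levels were 6.30 on WT_CTRL, 6.27 on WT_IMQ, 6.47 on KO_CTRL, 6.19 on KO_IMQ, 6.46 on KO_CTRL-B, 6.31 on KO_IMQ_B, 6.89 on KO_Allo and 6.82 on KO_IMQ_Allo. The alloferon arrays lay above all 6 others, as for Per3. The promoter window of Ciart held 3 E-boxes, 116, 58 and 44 bases before the start.

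Cry2, the paralogue of Cry1, lay on the other side from it, higher by 0.80 and 0.29 under IMQ and by 0.18 and 0.23 without. Usp2, a deubiquitinase under clock control, was higher by 0.38, 0.23, 0.11 and 0.25. Nfil3, a repressor that competes with Dbp and Tef at D-boxes, differed by -0.58 and -0.54 under IMQ and by -0.24 and -0.53 without it. Its levels on the alloferon arrays, 6.99 and 6.66, were the lowest of the 8. Nampt, an enzyme of NAD synthesis under clock control, differed by -0.46, -0.23, -0.84 and -0.44.

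Not all of the pathway followed these directions. Npas2, which can stand in for Clock, was higher by 0.31 and 0.19 under IMQ and differed by -1.12 and 0.03 without it, through a level of 7.44 on KO_CTRL against 6.14 to 6.87 elsewhere. Hlf, the third PAR bZIP factor, differed by -0.25 and 0.05 under IMQ and by 0.37 and 0.28 without it. Bhlhe40 had differences of -0.33, -0.43, 0.69 and 0.33.

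**Figure D5:**
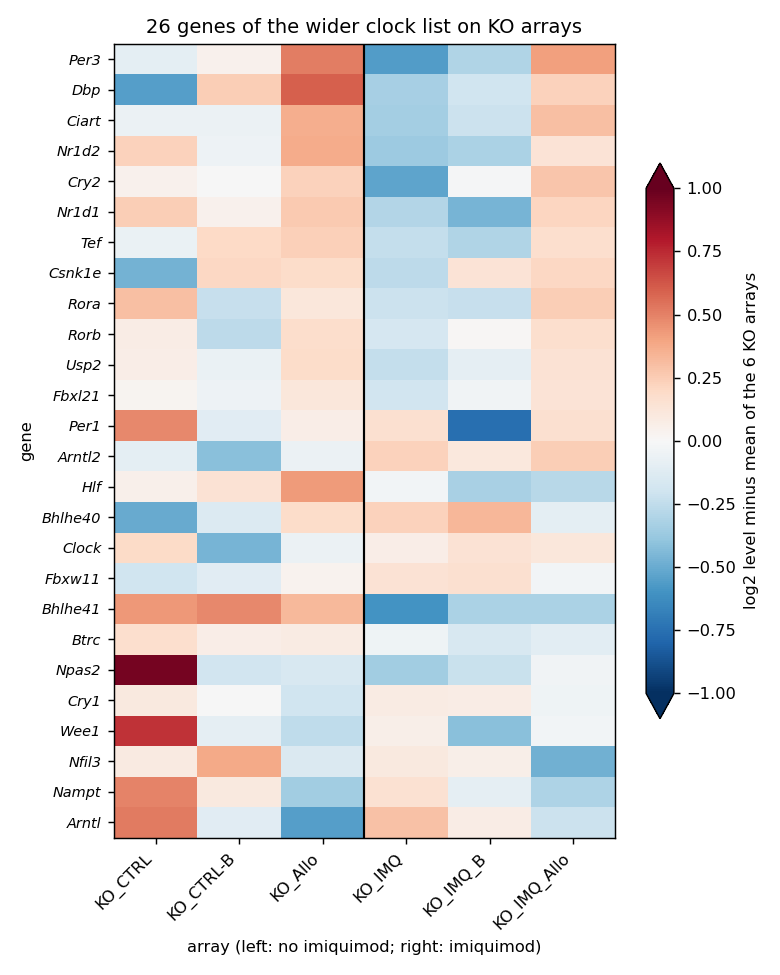
Heat map of 26 clock pathway genes (rows) on the 6 KO arrays (columns, without IMQ left of the line and with IMQ right of it); colour is the log2 level minus the gene's mean over the 6 arrays, from blue (lower) to red (higher), with values past 1 drawn at the end colour. The rows from Per3 to Fbxl21 are mostly red in both alloferon columns, while Nfil3, Nampt and Arntl at the bottom are blue in both.

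For IMQ over the 4 pairs, 1 of the 26 genes fell and none rose at an adjusted p of 0.05 in limma, and 4 lay under an unadjusted 0.05. Of all 22180 genes, 685 (3.09%) passed and 4171 lay under an unadjusted 0.05, so these counts are near those of all genes. The gene that passed was Bhlhe41 (DEC2), a repressor at E-boxes. Its levels were 6.26 on WT_CTRL, 5.72 on WT_IMQ, 6.57 on KO_CTRL, 5.54 on KO_IMQ, 6.62 on KO_CTRL-B, 5.82 on KO_IMQ_B, 6.46 on KO_Allo and 5.82 on KO_IMQ_Allo. All 4 IMQ arrays lay below all 4 others. The difference was -0.75 ± 0.11 log2 units (SE, 4 pairs; adjusted p = 0.0268 in limma), with -0.54, -1.03, -0.80 and -0.64 in the pairs. The median of the hair follicle markers moved the same way, by a median of -2.54 with 16 of 19 markers called lower. With that median as a covariate Bhlhe41 was no longer called (-1.31 ± 0.31, adjusted p = 0.775 in limma). With either this or the muscle covariate 0 of all 22180 genes were called, so these fits could not decide what part hair or muscle had. The call was also lost with the muscle median as a covariate (adjusted p = 0.710), with the arrays lettered B taken as repeats of the plain KO labels (0.0510), without either WT array (0.112), either plain KO array (0.0727) or either array lettered B (0.144), and its value stayed between -0.64 and -0.82 in those fits. Arntl2, a paralogue of Arntl, was higher in all 4 pairs by 0.35 ± 0.09 and did not pass (adjusted p = 0.104).

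The genes most like Dbp and Arntl over the 8 arrays were ranked by Pearson's r among 1677 genes with a mean above the median of all genes and a range of at least 1 log2 unit. Nearest to Dbp were Ccn5 (r = 0.85), Slit2 (0.85), Atg9b (0.84), Slc39a2 (0.81) and Cyp17a1 (0.79). Nearest to Arntl were Cycs (0.92), Sult1a1 (0.88), Fas (0.87), Nlrp1c-ps (0.86) and Akr1b10 (0.85). Cycs encodes cytochrome c, and its levels of 10.16 on KO_CTRL and 9.92 on WT_CTRL were its highest, on the arrays where the muscle medians were highest too. These likenesses rest on few arrays. Leaving out any 1 array kept between 2 and 7 of the 10 names, and without KO_Allo it kept 2, both near Dbp.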

How the data were processed

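Log2 expression values of 41345 probe sets on 8 arrays were deposited by the authors. The submitters' processing notes name RMA (robust multi-array averaging), Affymetrix Power Tools and R 3.3.2. RMA gives all arrays the same distribution, which takes out any shift common to most genes, and it compresses differences of dim genes. Of the probe sets, 23521 had 1 gene symbol, 1814 several and 16010 none in the platform annotation; the Entrez identifiers of 23328 of the first kind were in RefSeq (GRCm38.p6), and no symbol changed. A gene was represented by its probe set with the highest mean.

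Models were fitted to all 22180 genes with limma 3.58.1 in R 4.3.3 (lmFit, eBayes), with Benjamini-Hochberg adjustment over all genes and calls at an adjusted p of 0.05. The IMQ model had a level for each of 4 arms and 1 IMQ effect (3 residual degrees of freedom). The genotype model had an IMQ effect for WT and one for KO (2 residual degrees of freedom). Each label has 1 array, so the p-values reflect only the variation among these arrays, part of which may be technical. Alloferon comparisons had 1 array a side and no test; 1 log2 unit against both KO references was the limit used, with 0.5 beside it. The scripts were tested on simulated data. Of 200 genes given a difference of 0.5 log2 units, 0% were recovered over the 4 pairs and 0% over the KO pairs. At 1 unit 97% and 91.5% were recovered, and at 2 units 99.5% in each fit. In the data no gene was called over the KO pairs, where S100a8 differed by 5.27 log2 units (adjusted p = 0.0775 in limma). The recovered shares therefore do not show that differences of 1 or 2 units would be called in the data. The largest member IMQ differences were 0.26 over the 4 pairs (Clock) and -0.37 over the KO pairs (Nr1d2). The fits could therefore hardly call differences as small as those of the members.

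All members were named. Of the other lists, genes were named where limma called them, where they differed by 1 log2 unit with alloferon or were among the 2 largest differences of a list, and for likeness the 5 nearest genes each; other genes of those lists, and muscle markers, were named after their values were seen. The members and lists were chosen with earlier results of these data known. The number of arrays limits the precision.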

Additional observations from a re-analysis of the deposited data

Results flagged for a closer look

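The IMQ difference of Nr1d1 was above 0 in the WT pair and below 0 in all 3 KO pairs, though by only -0.04 in the alloferon pair. Of all genes, 10.3% had the WT pair on one side of 0 and all 3 KO pairs on the other. WT minus KO was 0.77 log2 units for Nr1d1. Nr1d2 also had opposite signs in this way, with a WT minus KO difference of 0.69. The difference itself was tested in limma, and the adjusted p was 0.983 for each gene. Both rest on the single WT pair, in which WT_CTRL had the lowest level of the 8 arrays for both genes.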

How the results depend on the processing

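In the 5 limma comparisons, the number of members called was 0 under every alternative run (those for IMQ in the WT pair were chosen after seeing the data): other probe set summary, a filter on dim genes, trended and robust eBayes, median centring, arrays lettered B taken as repeats of the plain KO labels, a hair or muscle covariate, and leaving out each array where the fit allowed it. The smallest adjusted p of a member for IMQ ranged from 0.157 to 0.775. The genes called for IMQ ranged from 0 (with either covariate, or without a WT array) to 1307 (without an alloferon array), and were 2 without a B array and 260 without a plain KO array. Members' IMQ values, none of them called, changed sign with the hair covariate (Arntl, Clock, Cry1), with the muscle covariate or without a WT array (Arntl, Cry1), without a plain KO array (Arntl), without a B array (Dbp, Per1) and without an alloferon array (Dbp). Those of Nr1d1, Nr1d2, Per3 and Tef kept their sign in all these fits. Members past 1 log2 unit with alloferon became 2 under IMQ at 0.5 units (Nr1d1 and Per3) and 2 without IMQ against the plain KO reference alone (Dbp and Arntl, where 3.15% of all genes passed). Leave-one-out kept 2 to 7 of the 10 genes most like Dbp and Arntl. The members of 1 sign in all alloferon differences, 7 of 9, were 6 with median centring, 6 of 8 with the filter on dim genes, and 7 to 8 without 1 KO array, alternatives chosen after seeing the data. The share of all genes was 23.1% at first, 31.4% to 36.9% without 1 reference array, 71.5% without KO_Allo (8 of 9 members) and 63.1% without KO_IMQ_Allo (7 of 9), where fewer differences have to share a sign. Of 748 member values under alternatives, 113 moved by more than their error. The counts of members of 1 sign include the contrast named in the rule and are descriptions. With 1 array per label, the array number limits every alloferon value.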

Other observations

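Some immediate early genes, which cells switch on rapidly after many stimuli, were low on the alloferon arrays. Fos had log2 levels of 8.38 on WT_CTRL, 8.10 on WT_IMQ, 7.96 on KO_CTRL, 8.69 on KO_IMQ, 7.82 on KO_CTRL-B, 8.02 on KO_IMQ_B, 6.83 on KO_Allo and 7.17 on KO_IMQ_Allo. Its alloferon differences were -1.51 and -0.84 under IMQ and -1.13 and -0.99 without it. Of the 8 genes in the list, 3 (Fos, Dusp1 and Atf3) were lower in all 4 differences, where 10.9% of all genes were. With 1 array a side there is no test.

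All glucocorticoid-responsive genes of the list except Sgk1 had their highest level on KO_CTRL. Zbtb16 read 9.60 on KO_CTRL and 8.15 on KO_CTRL-B, and Pdk4 read 10.76 and 8.74, so their alloferon differences without IMQ were -2.29 and -0.83 for Zbtb16 and -2.44 and -0.41 for Pdk4. Of the 9 genes, Errfi1 alone was lower in all 4 differences. Per1 was also highest on KO_CTRL, at 8.96, and a link between it and these genes was not tested.

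The second Tef probe set had levels of 5.39 on WT_CTRL, 5.49 on WT_IMQ, 5.60 on KO_CTRL, 5.15 on KO_IMQ, 5.50 on KO_CTRL-B, 5.50 on KO_IMQ_B, 5.72 on KO_Allo and 5.38 on KO_IMQ_Allo. KO_Allo was highest on it as on the first, but KO_IMQ_Allo was below KO_IMQ_B, so the 2 probe sets of Tef disagreed under IMQ.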
